A study of Mus musculus with 7 samples.

Results

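Zfp90 encodes a KRAB zinc finger protein, and it was measured here in mouse liver together with the corepressor genes REST and KAP1 work through. The genes were Zfp90, Rest, Trim28 (KAP1), Rcor1 (CoREST), Sin3a, Setdb1, Hdac1, Hdac2, Cbx5 (HP1 alpha) and Kdm1a (LSD1), taken by gene symbol from the platform annotation of the array. Of these 10 genes, 9 had a probe under that symbol, out of 16468 named genes in all. Hdac1 had none and was not analysed here. Rest was read by 2 probes and each of the other 8 genes by 1.

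Liver RNA came from 3 mice carrying a Zfp90 transgene (1 female, 2 males) and from 4 wild-type mice (1 female, 3 males). Each animal was hybridised on a 2-colour array against 1 pool, made from the livers of 4 wild-type mice, females and males. The sample titles do not say whether the pool held the same 4 wild-type animals that were measured here. If it did, the wild-type ratios would be tied to one another, and the p-values below make no allowance for that. This was not tested. The promoter that drives the transgene, the number of founder lines, the strain and the age of the animals are not given in the sources used here. All values are log2 ratios of an animal to the pool, so 0 means the level of the pool and 1 means 2-fold above it. The ratio carries no absolute level, so genes cannot be ranked by abundance, and the hepatocyte identity of the tissue cannot be read from levels.

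KRAB zinc finger proteins bind DNA through their zinc fingers and recruit KAP1, which brings the histone methyltransferase SETDB1 and the heterochromatin protein HP1 to the site. REST is a zinc finger repressor that silences neuronal genes outside the nervous system and some fetal genes in the heart. It holds the SIN3 complex at one end and the CoREST complex, with LSD1 and histone deacetylases, at the other. ZFP90 has been described as a partner of REST that weakens its repression.

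The sign of the ratios is unstated, and a positive value was taken to mean more RNA in the animal than in the pool because the Y-linked gene Kdm5d stood at -3.22 and -2.54 in the females and between 0.14 and 0.66 in the 5 males. Array medians ran from -0.01 to 0.03. Correlations over all probes were below -0.3 for 3 pairs of arrays, the lowest (-0.497) between wild-type male 4 and the transgenic female. Were the sign of all ratios the other way round, every difference would reverse at the same p. Differences between genotypes were fitted with limma in a model with sex, over 22218 features, and called at a Benjamini-Hochberg adjusted p under 0.05. That rule called 0 features (0% of those tested), with 1536 (6.91%) at an unadjusted p under 0.05, so no gene below is a called genotype difference. The labels do not say that the animals came from separate litters or preparations, and p-values measure the spread between these 7 samples.

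Zfp90 read 0.34 in the transgenic female and 0.58 and 0.45 in the transgenic males. In the wild-type males it read -0.15, -0.29 and -0.11, and in the wild-type female 0.37. Both transgenic males therefore lay above all 3 wild-type males, as in 11.2% of all features, whereas the females stood side by side, and the genotypes overlapped through the wild-type female. From high to low the order was transgenic male 1, transgenic male 2, wild-type female 3, transgenic female 1, and then wild-type males 4, 2 and 3. The 3 wild-type males had an SD of 0.09 around -0.18, and the transgenic males averaged 0.51.

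Over all 7 animals the genotype difference of Zfp90 was 0.48 ± 0.15 (SE), a 1.40-fold difference with a 95% interval of 0.13 to 0.83 on the log2 scale (limma, unadjusted p = 0.0137, adjusted p = 0.678). The group means, 0.46 ± 0.12 (SD, n = 3) and -0.05 ± 0.28 (SD, n = 4), gave a two-sided exact permutation p of 0.0857 over 35 splits. That test took no account of sex, unlike the limma model. In the males alone the difference was 0.69 ± 0.11 (SE), 1.62-fold (limma, unadjusted p = 0.000616, adjusted p = 0.206), against -0.02 between the females. The males alone had 6.96% of all features at an unadjusted p under 0.05 and 0.0315% called. The genotype difference in the females minus that in the males was -0.72 ± 0.21 (SE), with an unadjusted p of 0.0118 (8.42% of all features were under 0.05) and an adjusted p of 0.426 in limma. With 1 female per genotype, the spread behind that test came from the males. The 2 females were not separated by the 1 probe of the gene that the transgene carries. Whether that probe reads transgene RNA, endogenous RNA or both was not known here.

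**Figure D1:**
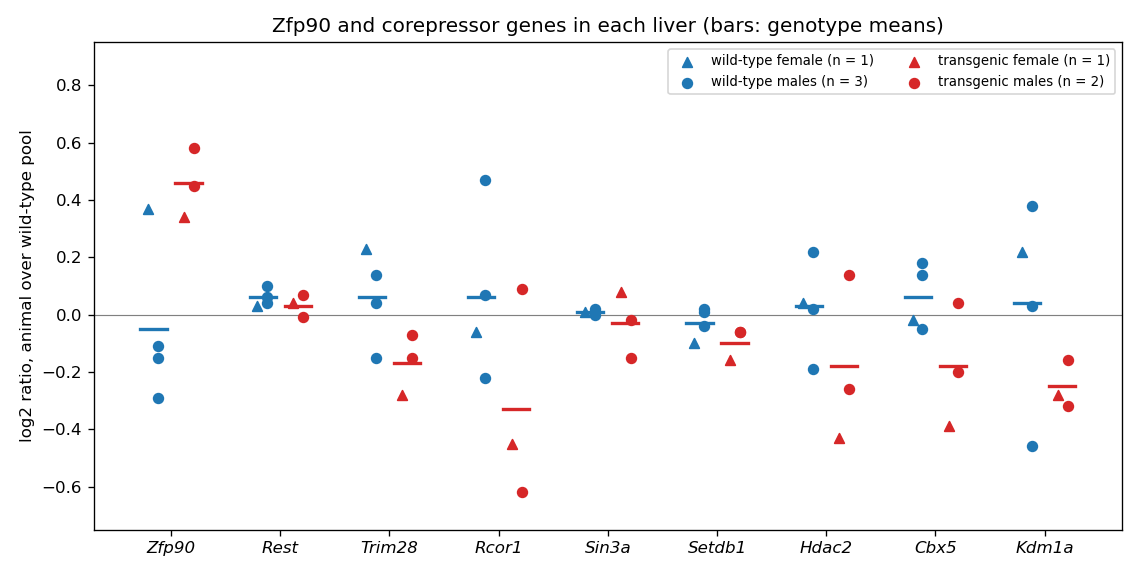
Log2 ratio of each animal to the wild-type pool for the 9 measured genes, wild type in blue and transgenic in red, females as triangles and males as circles, with genotype means as bars. The 2 transgenic males (0.45 and 0.58) lie above the 3 wild-type males for Zfp90, and the wild-type female (0.37) lies among the transgenic animals.

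The named genes whose 7 ratios lay closest to those of Zfp90, by root mean square difference, were Sp100 (0.061), Adm (0.084), Smc1b (0.089), Tlr4 (0.090) and Tmem237 (0.094), where the median over 16467 other named genes was 0.398. Sp100 is a nuclear body protein induced by interferon, Adm encodes the peptide adrenomedullin, Smc1b a cohesin subunit of meiosis and Tlr4 the receptor for bacterial lipopolysaccharide. Sp100 read 0.30 and 0.24 in the wild-type and the transgenic female, 0.49 and 0.39 in the transgenic males, and -0.12, -0.25 and -0.09 in the wild-type males. These arrays share the pool, and closeness was measured over 7 animals. Among the corepressor genes, Rest ranked 3867th in closeness (0.352) and Rcor1 15755th (0.628), with the other 6 between them. By this measure a gene that stays near 0 in all animals also comes out closer than the median. The mean of the 2 Rest probes ranged over 0.11 across the arrays, so its rank does not mean that Rest followed Zfp90.

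Macrophage markers were, in the mean, above the pool in the same 4 animals as Zfp90, though not in the same order. The share of all features with that pattern of signs was not counted. The mean of the lymphocyte genes was also above 0 in these 4 animals, and at 0.01 in wild-type male 3. Over 10 measured markers out of 11, the mean ratio was 0.68 in wild-type female 3 and 0.53 in transgenic female 1. It was 0.33 and 0.28 in the transgenic males and -0.62, -0.56 and -0.21 in the wild-type males, so that transgenic males stood above wild-type males and both females stood above all males, where Zfp90 was highest in the transgenic males. In the males 7 of the 10 markers lay higher in both transgenic animals than in all 3 wild-type animals, against 11.2% of all features. Cd163, a scavenger receptor with the smallest genotype p of the list, read 1.26 in the transgenic female and 0.79 and 1.34 in the transgenic males, against 0.16 in the wild-type female and -0.49 to 0.14 in the wild-type males, so there the wild-type female lay with the wild-type males. Marco, a receptor for bacteria and particles, was at 1.29 in the wild-type and 1.15 in the transgenic female, at -0.02 and 0.10 in transgenic males and from -1.84 to -1.31 in wild-type males. C1qa, a complement component made by macrophages, read 0.40 or more in both transgenic males, -0.68, -0.68 and -0.32 in the wild-type males, 0.84 in the transgenic female and 0.82 in the wild-type female. Cd68, C1qb and Adgre1 differed by 0.05, -0.05 and -0.04 between genotypes. Adgre1 read 1.54 in the wild-type and 0.19 in the transgenic female. It read 0.00 and 0.05 in the transgenic males and -0.93, -0.67 and 0.17 in wild-type males 2, 3 and 4, so the males overlapped. In bulk liver, more cells of a type and more RNA per cell cannot be told apart, and the part of macrophage content in the Zfp90 values was not tested.

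**Figure D2:**
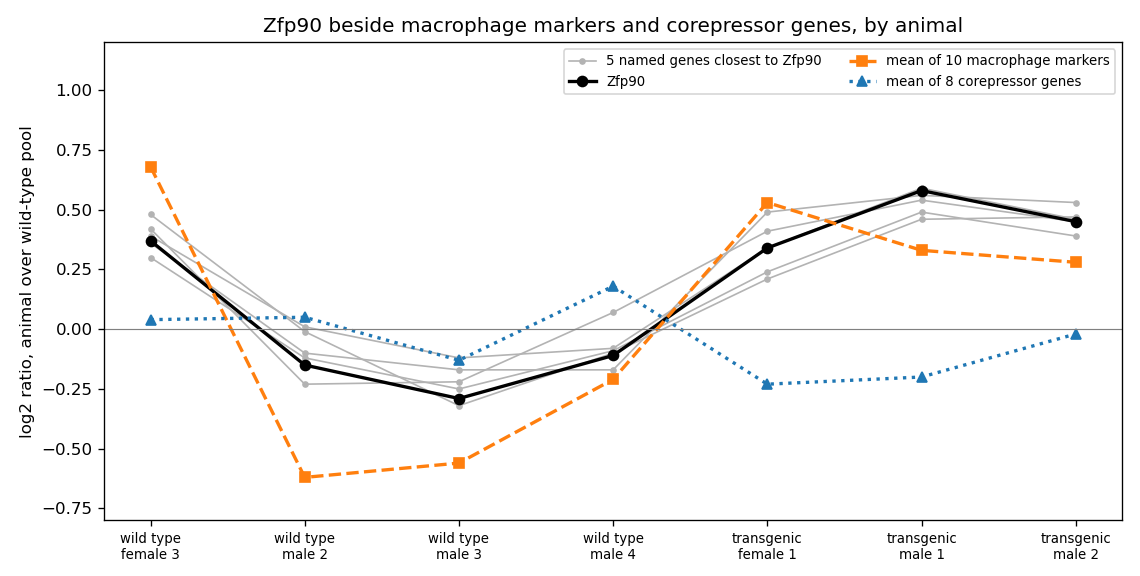
Log2 ratio to the pool in each of the 7 animals for Zfp90 (black), the 5 named genes closest to it (grey), the mean of 10 macrophage markers (orange, dashed) and the mean of the 8 measured corepressor genes (blue, dotted). Zfp90 and the macrophage mean are above 0 in the same 4 animals, among them the wild-type female, whereas the corepressor mean runs from -0.23 in the transgenic female to 0.18 in wild-type male 4. The share of all features above 0 in just these 4 animals was not counted.

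None of the 8 corepressor genes was called (limma, 0 of 8, and 0 of 8 at an unadjusted p under 0.05). All 8 had a difference below 0, from -0.38 to -0.02 with a median of -0.21, where 51.8% of all features were below 0 and the median over all features was -0.005. Each of the 8 overlapped between genotypes, where 2.84% of all features lay below all wild-type animals without overlap. Among the males, 2 of the 8 lay lower in both transgenic animals than in all wild-type animals (11.4% of all features). The 8 genes were read on the same arrays, so they are not independent of one another.

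Rest, the repressor itself, had group means of 0.06 ± 0.03 (SD, n = 4) in wild type and 0.03 ± 0.04 (SD, n = 3) with the transgene. Its difference of -0.02 had a 95% interval of -0.22 to 0.17 (limma, adjusted p = 0.988). That flat mean joins 2 probes that ran against each other. Probe 1 read 0.06 in the wild-type female, 0.22, -0.20 and 0.27 in wild-type males 2, 3 and 4, -0.20 in the transgenic female, and -0.04 and 0.21 in transgenic males 1 and 2. Probe 2 read 0.00, -0.09, 0.29, -0.07, 0.28, 0.19 and -0.23 in the same order. The probes had opposite signs on 7 of 7 arrays (probe 2 lay just under 0 in the wild-type female), as did those of 11 of the 998 genes with 2 probes (1.10%), where the median was 3 arrays.

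The 2 Rest probes were high and low in different animals rather than in different genotypes. Probe 1 differed by -0.09 ± 0.15 (SE) and probe 2 by 0.04 ± 0.15 between genotypes, and neither passed (limma, adjusted p = 0.958 and 0.989). The range of the mean over the arrays, 0.11, was smaller than the range of probe 1 (0.47) or probe 2 (0.52). The annotation assigns both probes to the same transcript, but their sequences and positions were not known here, and whether 1 of them reads another transcript or strand was not tested. The level of Rest relative to the pool therefore depends on the probe in single animals, and the mean over probes is not a measure of how little the transcript varied.

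**Figure D3:**
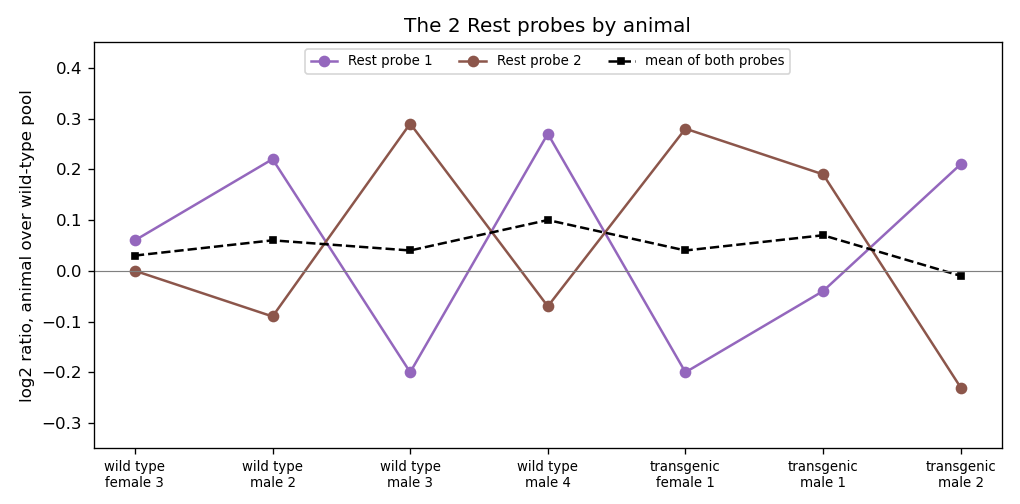
Log2 ratio to the pool of the 2 Rest probes and of their mean in each of the 7 animals. Where probe 1 is highest (0.27, wild-type male 4) probe 2 is below 0, and where probe 2 is highest (0.29, wild-type male 3) probe 1 is at its lowest (-0.20), so the mean stays between -0.01 and 0.10.

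The SIN3 arm of REST was read by Sin3a, the scaffold of a histone deacetylase complex. Sin3a stood between 0.00 and 0.02 in all 4 wild-type animals. In the transgenic animals it read 0.08 in the female, -0.15 in male 1 and -0.02 in male 2. Both transgenic males thus lay below all wild-type males, as in 11.4% of all features. The difference was -0.05 with a 95% interval of -0.25 to 0.16 (limma, adjusted p = 0.966), and it turned to 0.01 without transgenic male 1.

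Rcor1, Kdm1a and Hdac2 form the core of the CoREST complex, where RCOR1 is the scaffold, LSD1 removes methyl groups from histone H3 and HDAC2 removes acetyl groups. Rcor1 had the widest range of the 9 genes. It read 0.47 in wild-type male 4, 0.07 and -0.22 in wild-type males 2 and 3 and -0.06 in the wild-type female. In the transgenic animals it read -0.45 in the female, -0.62 in male 1 and 0.09 in male 2. Wild-type male 4 was thus highest, transgenic male 1 lowest, and transgenic male 2 lay above 3 of the wild-type animals. The difference was -0.38 ± 0.21 (SE), with a 95% interval of -0.87 to 0.12 (limma, adjusted p = 0.761). It was -0.17 without transgenic male 1 and -0.59 without transgenic male 2.

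Kdm1a read 0.22 in the wild-type female, 0.03, -0.46 and 0.38 in wild-type males 2, 3 and 4, -0.28 in the transgenic female and -0.32 and -0.16 in the transgenic males. All 3 transgenic animals lay below 0, and wild-type male 3 lay lower than any of them. The difference was -0.30 ± 0.19 (SE) (limma, adjusted p = 0.793), and it was -0.46 without wild-type male 3 and -0.18 without wild-type male 4.

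Hdac2 read 0.04 in the wild-type female, 0.02, -0.19 and 0.22 in wild-type males 2, 3 and 4, -0.43 in the transgenic female and -0.26 and 0.14 in transgenic males 1 and 2. Its difference was -0.20 ± 0.15 (SE) over all animals and -0.08 in the males alone (limma, adjusted p = 0.845 and 0.989). It was -0.11 without transgenic male 1 and -0.36 without transgenic male 2. Hdac2 is a close relative of Hdac1, and whether the probe also reads Hdac1 was not known here.

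The KAP1 arm was read by Trim28, Setdb1 and Cbx5. Trim28, the scaffold that KRAB domains bind, read 0.23 in the wild-type female, 0.04, -0.15 and 0.14 in wild-type males 2, 3 and 4, -0.28 in the transgenic female and -0.07 and -0.15 in the transgenic males. All 3 transgenic animals lay below 0, and wild-type male 3 lay among them. The difference was -0.23 ± 0.12 (SE), a 1.18-fold difference with a 95% interval of -0.51 to 0.05 (limma, adjusted p = 0.746). It was -0.51 between the females and -0.12 in the males alone.

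Setdb1, the histone H3 lysine methyltransferase recruited by KAP1, varied little. It read -0.10 in the wild-type female, 0.02, -0.04 and 0.01 in the wild-type males, -0.16 in the transgenic female and -0.06 in each transgenic male. The transgenic males lay below all 3 wild-type males, as did 11.4% of all features, and the difference over all animals was -0.06 with a 95% interval of -0.25 to 0.13 (limma, adjusted p = 0.934). Cbx5, the HP1 protein that binds methylated histone H3, read -0.02 in the wild-type female, 0.18, -0.05 and 0.14 in wild-type males 2, 3 and 4, -0.39 in the transgenic female and -0.20 and 0.04 in the transgenic males. Its difference of -0.23 ± 0.11 (SE) had the smallest p of the 8 corepressor genes (limma, unadjusted p = 0.0718, adjusted p = 0.739).

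**Figure D4:**
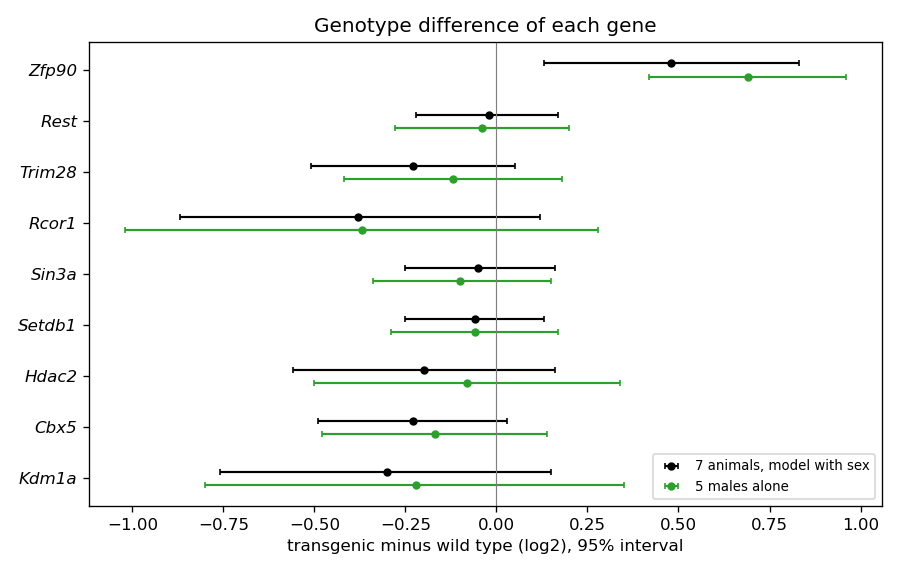
Difference between transgenic and wild-type animals (log2) for each gene with its 95% interval, in the model over 7 animals (black) and in the 5 males alone (green). The intervals of the 8 corepressor genes include 0 in both fits, and that of Zfp90 lies above 0 before adjustment for the number of features (0.13 to 0.83, and 0.42 to 0.96 in males).

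The mean ratio of the 8 corepressor genes also varied within each genotype. It was 0.18 in wild-type male 4, 0.05 in wild-type male 2, 0.04 in the wild-type female and -0.13 in wild-type male 3. In the transgenic animals it was -0.02 in male 2, -0.20 in male 1 and -0.23 in the female. The highest and the lowest mean fell on the 2 arrays with the lowest correlation over all probes (-0.497), and wild-type male 3 lay below transgenic male 2. Single genes departed from the mean: Sin3a was highest in the transgenic female, the array where Trim28, Setdb1, Hdac2 and Cbx5 were lowest, and Kdm1a was lowest in wild-type male 3. How far a spread common to whole arrays enters the values of the 8 genes was not tested.

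Neither sex nor the combination of sex and genotype was called for any of the 9 genes (limma, 0 of 9 each). Over all features 78 (0.351%) were called for sex and 16 (0.0720%) for the combination. The largest sex differences among the 9 genes were 0.21 ± 0.17 (SE) for Zfp90 and -0.21 ± 0.12 for Cbx5, female minus male. At an unadjusted p under 0.05, 0 of 9 genes passed for sex (9.23% of all features did) and Zfp90 alone for the combination.

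Other subunits of these complexes were measured as well. Of 21 measured REST and CoREST partners, 11 lay on the positive and 10 on the negative side (median difference 0.03), with 0 called. Rcor3, a relative of Rcor1, lay above all wild-type animals in all transgenic animals (0.20 to 0.30 against -0.27 to 0.18), where 3.17% of all features did so. Its difference was 0.29 ± 0.13 (SE) beside -0.30 ± 0.13 for Wiz, a zinc finger partner of the G9a methyltransferase, and 0.26 ± 0.13 for Smarca4, the BRG1 chromatin remodelling ATPase (limma, adjusted p from 0.722 to 0.739).

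Of 14 measured Sin3 subunits 6 lay on the positive and 8 on the negative side (median difference -0.03), with 0 called. Phf12 and Sap18 lay below all wild-type animals in all transgenic animals, with differences of -0.19 and -0.16, where 2.84% of all features did so. Rbbp4, a histone chaperone, differed by -0.35 ± 0.13 (SE). Ing1, a reader of methylated histone H3, differed by 0.75 ± 0.31 (SE), but the wild-type female read -1.41 where the wild-type males read -0.24 to 0.43, and the difference was 0.28 in the males alone. Adjusted p was 0.718 for Rbbp4, 0.721 for Ing1 and 0.728 for Phf12 in limma.

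Of 26 measured KAP1 partners 11 lay on the positive and 15 on the negative side (median difference -0.01), with 0 called. Mta1, a subunit of the NuRD complex, ran from -0.35 to -0.15 with the transgene and from -0.09 to 0.16 without it. Zfp57, a KRAB zinc finger protein that keeps imprinted genes methylated, ran from 0.35 to 1.05 with the transgene and from -0.18 to 0.34 without it. Dnmt3a, a DNA methyltransferase chosen here after its values were seen, read 0.18 to 0.22 against -0.13 to 0.10. Of the 26 genes, 2 lay above and 1 below all wild-type animals without overlap (3.17% and 2.84% of all features). Cbx3, the HP1 gamma gene, differed by 0.44 ± 0.18 (SE), the opposite sign to Cbx5 (-0.23), and Cbx1, the HP1 beta gene, by -0.03. None of these passed (limma, adjusted p from 0.709 to 0.992).

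Trim24, which encodes the KAP1 relative TIF1 alpha, was the single called gene for sex among the 26 measured KAP1 partners. Over all features, 0.351% were called for sex. Trim24 is named after its values were seen. It read 1.03 and 1.23 in the wild-type and the transgenic female, against -0.72, -0.62 and -1.11 in the wild-type males and 0.10 and -0.61 in the transgenic males. Females were 3.21-fold higher, with a difference of 1.68 ± 0.22 SE (limma, adjusted p = 0.0322).

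REST binds DNA at an element whose left part reads TTCAGCACC, and its neuronal target genes give a readout of its repression. Promoters of 300 bases around the start site (RefSeq, GRCm38.p6) were searched on both strands for these 9 letters. They were in 122 of 32851 promoters (0.371%) and in 4 of 33 promoters (12.1%) of the neuronal target list, those of Scg2, Unc13a, Syn1 and Celsr3. They were in 0 of 5 promoters of the heart target list. The 7 corepressor genes with a promoter in the table did not have them in that window. Of these genes Scg2, a granule protein of neuroendocrine cells, and Unc13a, a synaptic vesicle priming factor, were also measured on the arrays. Their sites are printed because they tie a measured readout to the letters that REST binds, with the match in capitals, on the strand of the gene, where both matches read as the reverse complement.
Scg2, chr1:79440005-79440053, minus strand: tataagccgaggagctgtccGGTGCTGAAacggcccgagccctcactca
Unc13a, chr8:71671708-71671755, minus strand: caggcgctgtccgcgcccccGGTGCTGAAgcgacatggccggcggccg

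These 2 genes did not separate the genotypes. Scg2 ran from -0.12 to 0.09 in wild type and from -0.07 to 0.03 with the transgene, a difference of 0.01 ± 0.09 (SE). Unc13a ran from -0.23 to 0.13 and from -0.29 to 0.31, and its difference was smaller than its SE of 0.13 (limma, adjusted p = 0.998 and 0.999). Signal over background is unknown for every probe, so a ratio near 0 can also come from a transcript that the array did not detect.

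Of 32 measured neuronal targets 17 lay on the positive and 15 on the negative side (median difference 0.01), with 0 called and 0 at an unadjusted p under 0.05. Chga, the chromogranin A gene, differed by -0.33 ± 0.16 (SE), Mapk8ip1, a kinase scaffold, by 0.19 ± 0.10 and Syt4, a synaptotagmin, by 0.63 ± 0.36 (limma, adjusted p from 0.738 to 0.761). Mapk8ip1 was the single gene of the 32 with no overlap between genotypes, higher with the transgene as in 3.17% of all features. Bdnf, a neurotrophin, was the single called gene of the 32 for sex, where 0.351% of all features were called. Bdnf is named after its values were seen. It read -1.19 and -1.05 in the females and 0.10 to 0.82 in the males, a 3.09-fold lower level in females (difference -1.63 ± 0.20 SE; limma, adjusted p = 0.0247).

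The 7 heart targets of REST were all measured, with 5 positive and 2 negative differences, a median of 0.09 and 0 called. Without overlap between genotypes were 3 of the 7. Acta1, the skeletal alpha actin gene, ran from 0.27 to 0.31 with the transgene and from -0.13 to 0.09 without it, a difference of 0.30 ± 0.09 (SE). Nppa, the atrial natriuretic peptide gene, read 0.04 to 0.23 against -0.11 to -0.02, a difference of 0.22 ± 0.09. Cacna1h, a T-type calcium channel gene, went the other way, at -0.22 to -0.04 against 0.00 to 0.47, a difference of -0.29 ± 0.11. Unadjusted p was 0.0135, 0.0416 and 0.0277 for these genes and adjusted p was 0.677, 0.721 and 0.718 in limma. Nppb, the brain natriuretic peptide gene, read 0.04 to 0.37 in transgenic animals and overlapped with wild-type male 4 at 0.13. Over all features, 3.17% lay above and 2.84% below all wild-type animals.

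**Figure D5:**
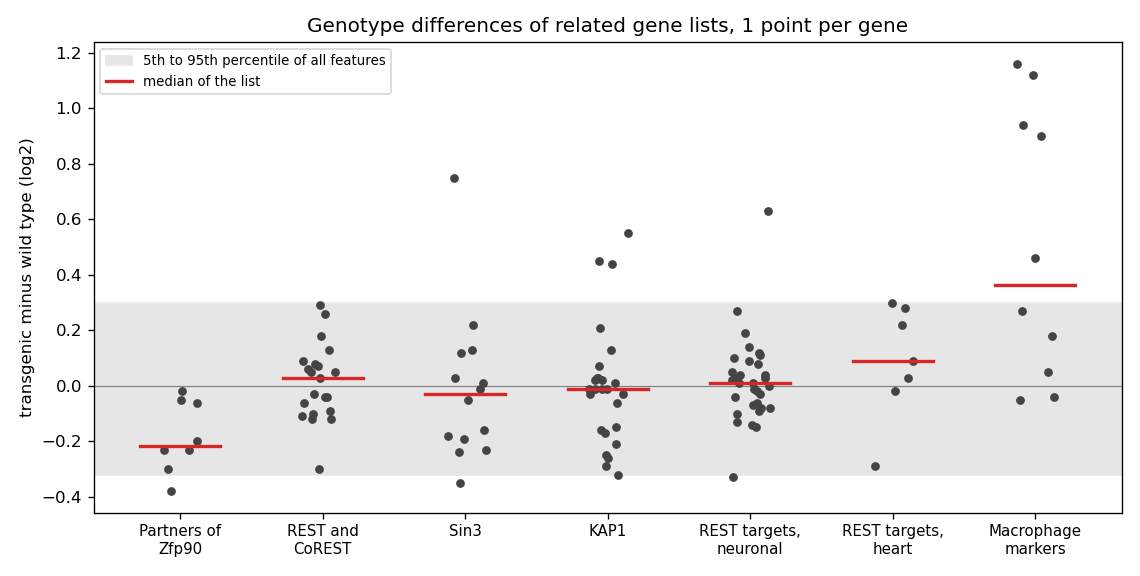
Difference between transgenic and wild-type animals (log2) for each gene of the corepressor set without Zfp90, of the related lists and of the macrophage markers, with the list median in red and the 5th to 95th percentile of all features (-0.32 to 0.30) in grey. Points of the corepressor genes lie between -0.38 and -0.02, the medians of the other REST, Sin3, KAP1 and REST target lists lie between -0.03 and 0.09, and the macrophage median is 0.36.

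Markers of other cell types had 0 called genes for genotype. Median differences were 0.02 for 9 lymphocyte genes, 0.09 for 5 bile duct genes, -0.07 for 6 stellate cell genes, 0.06 for 6 endothelial genes, 0.06 for 8 cell cycle genes and -0.04 for 10 hepatocyte genes. The mean ratio of the lymphocyte genes was 0.30 and 0.21 in the wild-type and the transgenic female and 0.06 and 0.02 in the transgenic males. In wild-type males 2, 3 and 4 it was -0.22, 0.01 and -0.24. Of the 9 lymphocyte genes, 2 lay higher in both transgenic males than in all wild-type males (11.2% of all features). Among the 10 hepatocyte genes, 1 lay above and 1 below all wild-type animals without overlap (3.17% and 2.84% of all features).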

How the data were processed

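The deposited values are log10 ratios, with 1 column per animal and 23574 probes. Per the labels, Cy5-labelled liver RNA of each animal was set against a Cy3-labelled pool, with dye swaps. How swaps were combined, the background correction and the normalization by the authors are not given in the sources used here. The log base was read from the values, which end at exactly -2 and 2. A factor of 3.32 turned them into log2 ratios. Probes with 1 symbol (17824) were averaged per gene. The 50 probes with several symbols and the 5700 with none were kept singly, giving 22218 features.

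Differences were fitted with limma 3.58.1 in R 4.3.3 (lmFit, eBayes), with Benjamini-Hochberg adjustment over all features. Zfp90 was also compared by an exact permutation test of the absolute difference of means. Precision is limited by the number of arrays. Data were simulated for transgenic against wild type with 22218 features. The fit found 38 of 100 planted 1.5-fold changes and 89 of 100 planted 3-fold changes, and 10 of its 137 calls were false. The simulated noise was normal and independent between features and arrays, without a sex effect, and both fold sizes were planted together. The real arrays had correlations from -0.497 to 0.526, so these counts need not hold for the real data.

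The genes and lists were chosen with earlier results of these data known. Named genes are all 10 corepressor set genes, the 5 named genes closest to Zfp90 and the 3 genes with the smallest genotype p of each related list and of the macrophage list. Other genes (Sap18, Dnmt3a, Cbx1, Trim24, Bdnf, Nppb, Cd68, C1qb, Adgre1) were chosen after their values were seen, and Scg2 and Unc13a by their promoters. Of the cell type lists, only values of macrophage genes are printed singly. Alternatives were median centring, quantile normalization, single probes, named genes only, no sex or genotype term, males alone and leaving out each animal.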

Additional observations from a re-analysis of the deposited data

Results flagged for a closer look

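Zfp90 differed between the sexes in its genotype difference at an unadjusted p under 0.05. The difference in the females minus that in the males was -0.72 ± 0.21 on the log2 scale (limma, unadjusted p = 0.0118, adjusted p = 0.426), with 1 female per genotype, and 8.42% of all features passed the same unadjusted threshold. No wild-type value of the 9 genes stood far enough from the other 3 for Dixon's criterion.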

How the results depend on the processing

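The count of called members was 0 for genotype, sex and their combination in every alternative run. The count of features called for genotype was 0 in the model over 7 animals, 7 in the males alone, and 0 to 7 with 1 animal left out. It was 7 without either female, a fit that equals the males alone because the remaining female is fitted exactly. The Zfp90 difference kept its direction in 13 of 13 alternatives (0.37 to 0.69, adjusted p of 0.206 or more), as did the difference of its group means in 10 of 10 (0.42 to 0.69). Trim28, Rcor1, Setdb1, Hdac2, Cbx5 and Kdm1a kept theirs in 13 of 13 each. These limma alternatives are not 13 separate checks. For a gene with 1 probe, single probes and named genes only return the difference of the main fit by construction. The limma fits without either female and in the males alone are the same fit. Rest turned to 0.04 when its probe 2 was tested on its own, and its range with 1 animal left out was -0.04 to 0.01 (0.01 without transgenic male 2). Sin3a ranged from -0.10 to 0.01 with 1 animal left out (0.01 without transgenic male 1). The cause of these turns was not tested. The combination of sex and genotype could not be fitted without either female. No paired analysis was possible because the sample titles give no pairs of animals. Signal over background, which would limit dim probes, is unknown.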
